A study of Oryzias latipes with 4 samples.

Results

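cd74 encodes the invariant chain of major histocompatibility complex (MHC) class II, and it is followed here as 1 transcript model, MEDAKA039953, of 93896 in the deposited table. The model was taken by its identifier, but cd74 and the gene lists used below were chosen with earlier results of these data known. It lies on chromosome 10 from 16330797 to 16334772 in the coordinates of the authors' models, for which no source used here names the genome build or the strand. Its span of 3976 bp holds a transcript length of 1453 nt, so the remaining 2523 bp lie between its exons. The name cd74 was given by position: the model covers 100% of the RefSeq gene cd74, which covers 94.6% of the model. No other model overlaps it, whereas 71.6% of all models overlap another one, so it shares no reads with an overlapping model; reads shared with a near-identical copy elsewhere were not tested.

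The measurements came from 1 dissected brain region of female medaka (Oryzias latipes), a small teleost fish. The region comprises the ventral telencephalon, the hypothalamus and the pituitary, sampled 16 h after a move from the condition called SD in the labels into LD. The 2 Ribo-seq libraries hold RNA fragments protected by ribosomes, and the 2 RNA-seq libraries hold total RNA, in the groups the labels call LD_Riboseq and LD_RNAseq. All 4 libraries share this condition, and no group without the move is analysed here. The labels do not say that replicates came from separate fish, so the p-values measure the spread between these libraries, which may be technical. The values are FPKM, fragments scaled to model length and library size, and the depth behind them is unknown.

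In vertebrates, the invariant chain binds newly made class II dimers in the endoplasmic reticulum, keeps other peptides out of their groove and guides them to endosomes. There it is cut away stepwise by endosomal proteases, and antigen peptides take its place. The same protein also reaches the cell surface, where in mammals it serves as a receptor for the cytokine MIF. Cells that present antigen on class II carry it, and in the brain these are chiefly microglia and macrophages.

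cd74 was an abundant transcript by both assays, and more so by footprints. It had 104 and 197 FPKM in Ribo-seq replicates 1 and 2, against 41.2 and 41.5 FPKM in RNA-seq replicates 1 and 2. Both Ribo-seq values lay above both RNA-seq values, and the Ribo-seq pair differed far more between replicates than the RNA-seq pair. The mean was 150 ± 65.7 FPKM in Ribo-seq and 41.3 ± 0.196 FPKM in RNA-seq (SD, n = 2 each). Complete separation with Ribo-seq on top is common in this table. It was found for 37.5% of the 5705 tested models with a gene symbol and for 17.7% of all 50625 tested models.

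**Figure D1:**
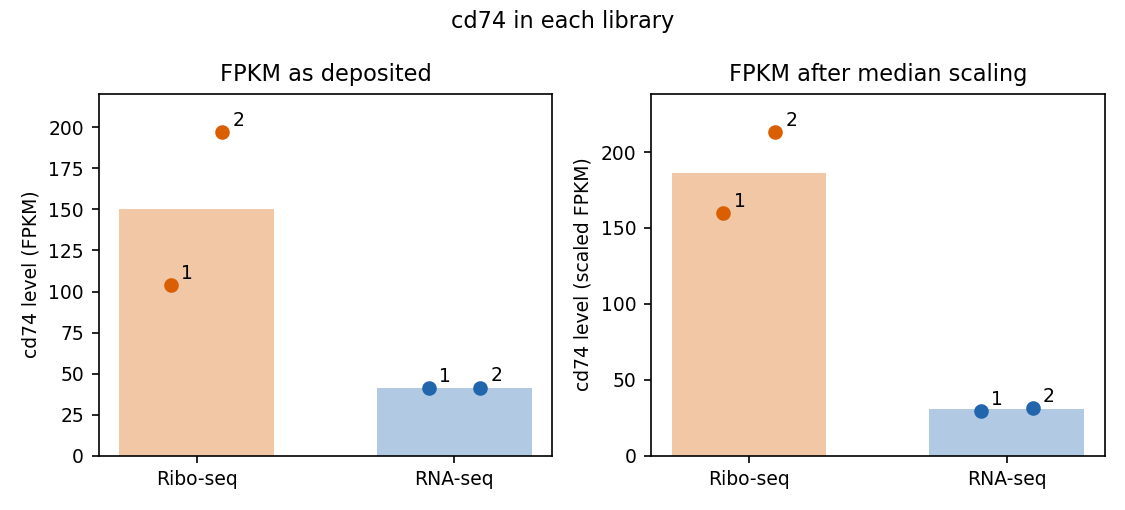
The level of cd74 in each library, as deposited (left, FPKM) and after scaling of the libraries (right, scaled FPKM), with bars at the mean of 2 libraries and numbered points for the replicates. Ribo-seq lies above RNA-seq in both panels, and the Ribo-seq points move closer together after scaling.

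The rank of cd74 within a library does not depend on any scaling between libraries. Among all 93896 models it ranked 636th and 524th in Ribo-seq replicates 1 and 2, against 2288th and 2189th in RNA-seq replicates 1 and 2. Among the 7241 models with a symbol it ranked 90th and 74th in the Ribo-seq libraries, against 194th and 200th in the RNA-seq libraries. Its place was thus higher in each Ribo-seq library than in each RNA-seq library by both counts.

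The spread between the Ribo-seq libraries is in part shared by the whole table. The deposited FPKM of cd74 was 1.89 times as high in Ribo-seq replicate 2 as in replicate 1, and the median of this ratio was 1.60 over 5644 tested models with a symbol and values above 0 in all libraries. After each library was divided by its median ratio to the geometric mean of all libraries, cd74 had scaled levels of 160 and 213 in Ribo-seq, against 29.5 and 31.4 in RNA-seq. Its ratio between the Ribo-seq replicates was then 1.33, against a median of 1.13 over the same models. Its level in RNA-seq replicate 2 was 1.07 times that in replicate 1 after scaling, and the median of this RNA-seq ratio over the same models was also 1.07.

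Footprints relative to RNA, model by model, show which models have a higher footprint FPKM for their RNA level than is typical of the table. For cd74, the log2 difference, Ribo-seq minus RNA-seq on the scale of log2(scaled FPKM + 1), was 2.56 ± 0.19 (SE), with a 95% interval from 2.01 to 3.11 (limma, adjusted p = 0.0039, higher in 2 of 2 Ribo-seq libraries). The scaled level of a single Ribo-seq library was 5.08 to 7.22 times that of a single RNA-seq library, over the 4 pairs of libraries. An exact permutation test of the 4 values gave a two-sided p of 0.333, the smallest that 2 libraries against 2 allow. A call of higher was common: limma called 52.4% of the tested models with a symbol and 23.9% of all tested models higher in Ribo-seq, against 6.01% and 33.7% lower, so the call alone does not set cd74 apart. Without RNA-seq replicate 1 the difference was 2.51 and was no longer called (limma, adjusted p = 0.070), and without RNA-seq replicate 2 it was 2.60 (adjusted p = 0.067).

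The size of the difference depends on the scale of the libraries, since FPKM cannot show an overall difference in level between assays. The median difference of tested models with a symbol was 0.76 under median scaling, and that of all tested models was -0.20. With FPKM as deposited, these medians were 0.13 and -0.79, and the cd74 difference was 1.77 (limma, adjusted p = 0.026). Relative to the median of models with a symbol, cd74 lay 1.79 higher under median scaling and 1.64 higher with FPKM as deposited. It stood at percentile 98.8 of the 5705 models with a symbol under median scaling, and at percentile 98.6 with FPKM as deposited. Whether the authors computed footprint FPKM over coding regions or whole models is not given, and the effect of the length used was not tested.

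cd74 was next set among models of similar RNA abundance. These were the 1450 other tested models whose mean RNA-seq FPKM lay no more than 25% above or 20% below that of cd74, from 33.1 to 51.7 FPKM. Their median footprint level was 32.4 FPKM, against 150 FPKM for cd74, and their median log2 difference was 0.41, with quartiles at -1.84 and 1.51. cd74 stood at percentile 95.9 by its difference, with 60 of these models above it, and at percentile 96.0 by its footprint level. limma called 41.3% of these models higher in Ribo-seq and 26.9% lower. By single libraries, cd74 stood at percentile 94.8 of their footprint levels in Ribo-seq replicate 1 and 96.4 in replicate 2.

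Models at this RNA level with a gene symbol had more footprints than the rest. Both Ribo-seq libraries listed 50 of the 1450 at 0, none of which had a symbol. Among the 109 with a symbol the median footprint level was 60.7 FPKM and the median difference 1.35, and 67.0% were called higher in Ribo-seq and 6.42% lower. cd74 stood at percentile 93.6 of these by its difference, with 7 above it. Among the 203 models within a factor of 1.5 of its length it stood at percentile 94.6. Among the 40 with a symbol that, like cd74, overlapped no other model, it stood at percentile 90.0, with 4 above it.

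**Figure D2:**
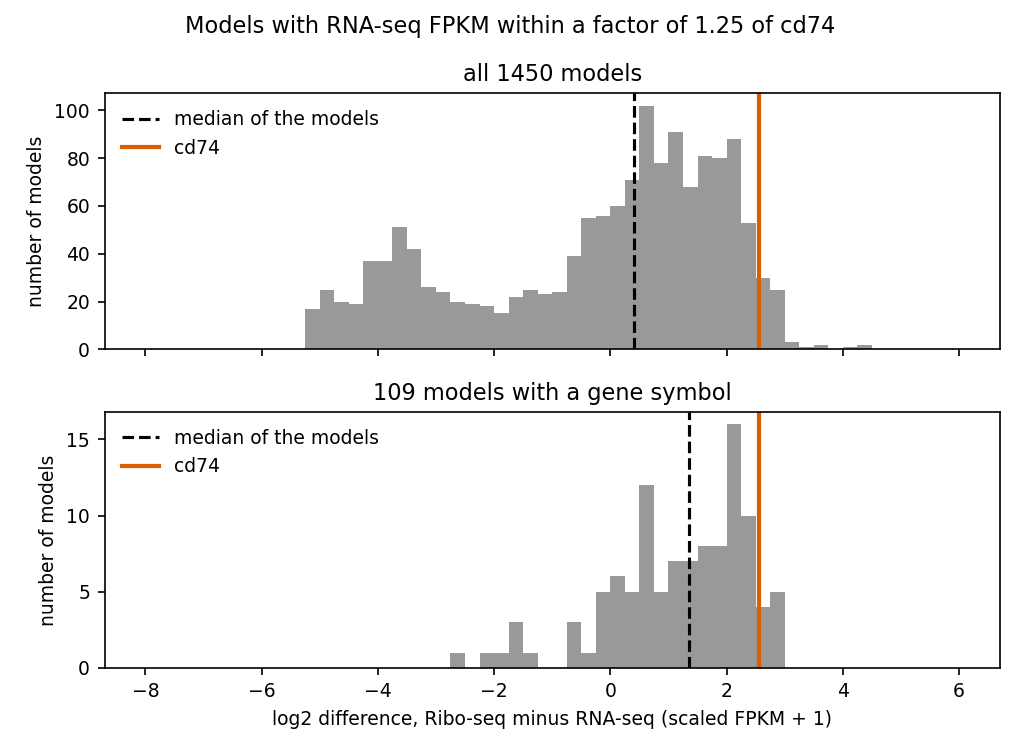
Log2 difference, Ribo-seq minus RNA-seq, of the models whose RNA-seq FPKM is at most 25% above or 20% below that of cd74: all 1450 models above and the 109 with a gene symbol below, as numbers of models per bin. The orange line marks cd74 at 2.56, to the right of the dashed medians at 0.41 and 1.35.

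The 7 named models of similar RNA level with a larger difference than cd74 were singled out after their values were seen. Among them were skp1, a subunit of a ubiquitin ligase (log2 difference 2.98), isyna1, the inositol phosphate synthase (2.96), uchl1, a deubiquitinating enzyme of neurons (2.85), rtn1, a reticulon (2.76), ran, the GTPase of nuclear transport (2.69), and prdx2, a peroxiredoxin (2.56). The 95% intervals of these 6 all overlapped that of cd74.

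The named models closest to cd74 by RNA level differed widely in footprints. Next above it were ppib, a prolyl isomerase of the endoplasmic reticulum, slc6a17, a neuronal amino acid transporter, and kif5c, a neuronal kinesin. Next below it were cbx5, a heterochromatin protein, pdia3, a disulfide isomerase of the endoplasmic reticulum that helps load MHC class I, and ndufab1, the acyl carrier protein of mitochondria. These 6 lay between 40.9 and 42.0 FPKM in RNA-seq. ppib had 103 and 162 FPKM in Ribo-seq, against 41.5 and 41.8 FPKM in RNA-seq. slc6a17 had 34.6 and 66.7 FPKM in Ribo-seq, against 39.5 and 44.3 FPKM in RNA-seq, so its assays overlapped as deposited. All 6 were called higher, with log2 differences of 2.40 for ppib, 0.98 for slc6a17, 1.44 for kif5c, 1.77 for cbx5, 2.08 for pdia3 and 2.47 for ndufab1 (limma, adjusted p from 0.0039 to 0.024). Such calls are common here, at 67.0% of the 109 models with a symbol at the RNA level of cd74. With FPKM as deposited, slc6a17, kif5c and cbx5 were no longer called (limma, adjusted p = 0.74, 0.22 and 0.16).

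Over the 4 libraries, the 5 named models most like cd74 were pam, ndufab1, atp5f1d, ppib and ran. Likeness was the Euclidean distance of log2(scaled FPKM + 1), whose median over 5704 models with a symbol was 7.40. pam, the enzyme that amidates neuropeptides and peptide hormones, was nearest at a distance of 0.145. It had 108 and 186 FPKM in Ribo-seq, against 40.9 and 44.9 FPKM in RNA-seq. ndufab1 lay at 0.182, atp5f1d, a subunit of mitochondrial ATP synthase, at 0.280, ppib at 0.283 and ran at 0.347. These points share their libraries and 1 condition, so the distance describes level and assay difference alone.

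Genes around the invariant chain were read from 6 lists of symbols, matched by position in the same way. The lists cover class II loading, class II transcription, MHC class I presentation, and MIF with its receptor partners. They also hold markers of microglia and macrophages and of lymphocytes and dendritic cells, so many members are not partners of cd74. In all, 45 models were matched to a listed symbol besides cd74, and 35 of them were tested at a mean FPKM of at least 1. Of these 35, 25 were called higher in Ribo-seq, which is 71.4%, against 52.4% of all tested models with a symbol. None was called lower (limma, 0 also at an unadjusted p below 0.05), against 6.01% of all tested models with a symbol. These background shares are not matched for RNA level. Among the 109 models with a symbol at the RNA level of cd74, 67.0% were called higher. Whether RNA level accounts for the share in the lists was not tested. By mean FPKM, 1 of the 35 lay above cd74 in RNA-seq and none in Ribo-seq. The call share depends on the scale: with FPKM as deposited, 8 of the 35 were called higher and 0 lower. On that scale 2425 of all 50625 tested models were called higher and 21141 lower, so the 52.4% does not apply there. Fewer of the 35 were called higher without RNA-seq replicate 1 or without RNA-seq replicate 2. These fits hold a lone RNA-seq library, which is assumed to vary like the Ribo-seq pair, and their differences stayed close to the main ones, as for ctsb (2.07 and 2.25, against 2.16 with all libraries) and mif (2.64 and 2.53, against 2.59). Of the 35 models, 25 overlap another model, unlike cd74, and can share reads with it.

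**Figure D3:**
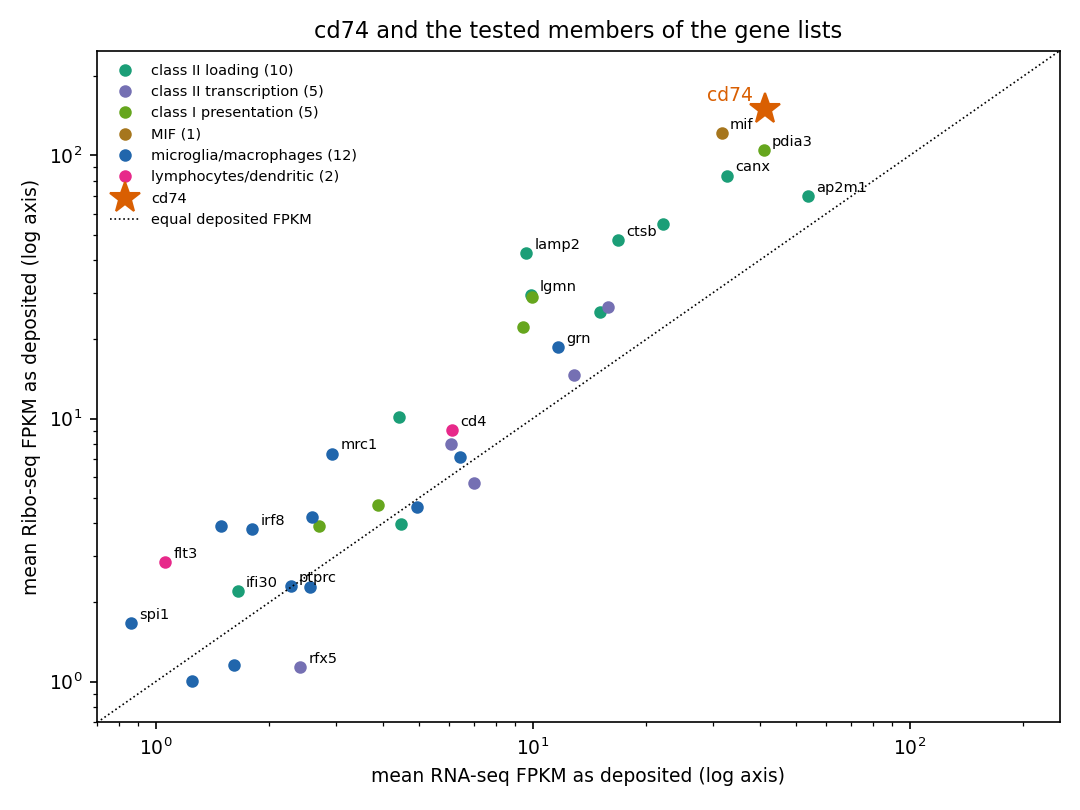
Mean deposited FPKM in Ribo-seq (vertical, log axis) against RNA-seq (horizontal, log axis) for cd74 and the tested members of the 6 lists, with the number of members in brackets and a dotted line of equal FPKM. cd74 has the highest footprint level of all points, and the microglia and macrophage markers lie at 11.7 FPKM or lower in RNA-seq.

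The class II loading list also holds general sorting and lysosomal genes, so its counts do not describe partners of cd74 alone. Of its 10 tested members besides cd74, 8 were called higher and none lower. This stood beside 52.4% of tested models with a symbol and 23.9% of all tested models called higher, shares not matched for RNA level. The median log2 difference of the 10 was 1.83, against 0.76 for tested models with a symbol. canx, the endoplasmic reticulum chaperone calnexin, had 66.7 and 101 FPKM in Ribo-seq, against 34.4 and 31.0 FPKM in RNA-seq (log2 difference 2.09; limma, adjusted p = 0.0039). ctsb, the lysosomal protease cathepsin B, had 34.1 and 61.2 FPKM in Ribo-seq, against 16.2 and 17.4 FPKM in RNA-seq (2.16). lgmn, the asparagine-specific endosomal protease legumain, had 20.7 and 38.2 FPKM in Ribo-seq, against 10.2 and 9.56 FPKM in RNA-seq (2.17). For these 3 genes both Ribo-seq libraries lay above both RNA-seq libraries, as for 37.5% of tested models with a symbol. Each call also held with FPKM as deposited. The list is partial: 11 models, cd74 included, were matched from its 21 symbols. It held no gene of the class II dimer that the invariant chain binds. Whether the levels of its members come from cells that carry cd74 was not tested.

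The other named members of that list included sorting and lysosomal genes. The clathrin adaptor subunit genes ap1m1 and ap2m1 had differences of 1.99 and 1.14, and lamp1, a lysosomal membrane glycoprotein gene, one of 1.39. These 3 calls were lost with FPKM as deposited (limma, adjusted p = 0.063, 0.50 and 0.31). ap2m1 was the 1 listed gene above cd74 in RNA-seq, at 53.6 ± 5.34 FPKM, but below it in Ribo-seq, at 70.3 ± 23.3 FPKM (SD, n = 2 each). lamp2, a second lysosomal membrane glycoprotein gene that was picked after its values were seen, was the 1 member of this list with a larger difference than cd74, at 2.71. Not called were ctsc, a lysosomal dipeptidyl peptidase gene (0.52; limma, adjusted p = 0.084), and ifi30, a lysosomal thiol reductase gene (0.74; adjusted p = 0.063). Cathepsins S and L, which cut the invariant chain in mammals, were not matched to a model by symbol and are not analysed here.

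The list for class II transcription was next, and not every member of it is a transcription factor of class II genes. Of 5 tested members, 3 were called higher and none lower, near the 52.4% of tested models with a symbol called higher. Their median difference was 0.91. The 3 called were the subunits of the CCAAT-binding factor NF-Y, with differences of 1.43 for nfyb, 1.0 for nfya and 0.91 for nfyc. All 3 lost their call with FPKM as deposited (limma, adjusted p = 0.23, 0.50 and 0.70). The RFX complex binds class II and invariant chain promoters in mammals. Its DNA-binding subunit rfx5 had 0.885 and 1.40 FPKM in Ribo-seq, against 2.74 and 2.11 FPKM in RNA-seq. On the scaled values its difference was -0.19 (limma, adjusted p = 0.42), and that of its partner rfxap was 0.40 (adjusted p = 0.13). With FPKM as deposited the differences of rfx5 and rfxap were -0.68 and -0.29 (limma, adjusted p = 0.08 and 0.52). A further matched member, nlrc5, had 0.0578 and 0.0149 FPKM in Ribo-seq, against 0.613 and 0.559 FPKM in RNA-seq, and was not tested. In the fit with no filter it was called lower (-0.44, limma adjusted p = 0.017). All its values lie under 1 FPKM, and that fit called more models lower across the table than the main fit. The class II transactivator gene ciita was not matched and is not analysed here.

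In MHC class I presentation, 4 of 5 tested members were called higher and none lower, with a median difference of 1.83, beside 52.4% of tested models with a symbol called higher. pdia3 had 79.3 and 130 FPKM in Ribo-seq, against 41.9 and 40.0 FPKM in RNA-seq, so it was close to cd74 in RNA and lower in footprints. psme1 and psme2, subunit genes of the proteasome activator PA28, had differences of 2.19 and 1.83. The difference was 0.83 for tapbp, which encodes tapasin, and 0.84 for the peptide transporter gene tap1, which was not called (limma, adjusted p = 0.13). With FPKM as deposited, pdia3 and psme1 remained called, and psme2 and tapbp did not (limma, adjusted p = 0.086 and 0.65). The immunoproteasome genes psmb8 and psmb9 had means under 1 FPKM over the 4 libraries and were not tested.

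mif, which encodes the cytokine that binds cd74 in mammals, was close to cd74 in level and in difference. It had 75 and 169 FPKM in Ribo-seq, against 33.8 and 29.6 FPKM in RNA-seq, a log2 difference of 2.59 ± 0.27 (SE; limma, adjusted p = 0.0046). Both Ribo-seq libraries lay above both RNA-seq libraries, as for 37.5% of tested models with a symbol. The call held with FPKM as deposited (difference 1.80, limma adjusted p = 0.037). Its interval, from 1.83, overlaps that of cd74. The receptor partners cd44, cxcr4, cxcr2 and ackr3 were not matched and are not analysed here.

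The matched markers of microglia and macrophages, cells known to carry cd74, were present at much lower levels than cd74 itself. Only 14 models were matched from the 45 listed symbols, so the levels of the unmatched markers are not known here. The 12 tested microglia and macrophage markers had mean levels of 1.01 to 18.7 FPKM in Ribo-seq and of 0.862 to 11.7 FPKM in RNA-seq. The mean cd74 level was 8.02 times that of the highest of them, grn, in Ribo-seq, and 3.54 times in RNA-seq. It was 38.9 times the median marker in Ribo-seq and 17.1 times in RNA-seq. In bulk tissue, fewer cells of a type and less RNA per cell cannot be told apart, so these ratios do not count cells.

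Of these 12 markers, 7 were called higher and none lower, beside 52.4% of tested models with a symbol called higher. The median difference of the 12 was 0.85. Among the 7 was spi1, picked after its values were seen. It had 1.24 and 2.1 FPKM in Ribo-seq, against 0.847 and 0.877 FPKM in RNA-seq. It passed the filter at a mean of 1 FPKM only through its Ribo-seq values. Its call is therefore not independent of the filter, here or in the count over all lists. grn, which encodes progranulin, had 15.8 and 21.7 FPKM in Ribo-seq, against 11.4 and 12 FPKM in RNA-seq (log2 difference 1.37; limma, adjusted p = 0.0046). mrc1, the macrophage mannose receptor gene, had 5.27 and 9.45 FPKM in Ribo-seq, against 3 and 2.88 FPKM in RNA-seq (1.68; adjusted p = 0.0055). In both genes the Ribo-seq libraries lay above the RNA-seq libraries, as for 37.5% of tested models with a symbol. Yet both calls were lost with FPKM as deposited (limma, adjusted p = 0.18 and 0.064). The 1 marker still called with FPKM as deposited was plek, which encodes pleckstrin (0.96; limma, adjusted p = 0.045), named after its values were seen. The lysosomal enzyme gene hexb had a difference of 0.79 and was not called with FPKM as deposited (adjusted p = 0.84), and the transcription factor gene sall1 had one of 0.57 that turned to -0.09.

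Not called among the named markers were cebpa, a myeloid transcription factor gene (1.14; limma, adjusted p = 0.096), and ncf1, an NADPH oxidase subunit gene (0.36; adjusted p = 0.34), which was -0.18 with FPKM as deposited. The listed markers irf8 and ptprc, picked after their values were seen, were low in RNA. irf8, a macrophage transcription factor gene, had 2.97 and 4.64 FPKM in Ribo-seq, against 1.69 and 1.90 FPKM in RNA-seq. ptprc, the pan-leukocyte surface antigen CD45, had 2.2 and 2.42 FPKM in Ribo-seq, against 2.47 and 2.1 FPKM in RNA-seq. None of the 12 markers had a difference as large as that of cd74, but no test of cd74 against the markers was made. The pseudocount of 1 understates differences of low models such as these. With a pseudocount of 0.1 the median of the 12 was 1.17, against 0.85 in the main fit, and the cd74 difference was 2.59. Summed over all 14 matched markers, the level was 49.1 and 68.3 FPKM in Ribo-seq and 41.0 and 40.6 FPKM in RNA-seq. Common markers such as csf1r, mpeg1 and c1qa were not matched by symbol and are not analysed here.

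Matched markers of other immune cells that could carry cd74 were low, but only 7 models were matched from 24 listed symbols. Of 7 matched markers of lymphocytes and dendritic cells, only cd4 and flt3 reached a mean of 1 FPKM over the 4 libraries. cd4, a T cell coreceptor gene, had 6.58 and 11.5 FPKM in Ribo-seq, against 5.93 and 6.30 FPKM in RNA-seq. flt3, a receptor gene of dendritic cell progenitors, had 1.99 and 3.70 FPKM in Ribo-seq, against 0.978 and 1.13 FPKM in RNA-seq. Both were called higher (log2 difference 1.15 and 1.34, limma adjusted p = 0.011 and 0.0097), beside 52.4% of tested models with a symbol. Neither was called with FPKM as deposited (limma, adjusted p = 0.35 and 0.068). The B cell receptor gene cd79a, picked after its values were seen, had 1.75 and 1.11 FPKM in Ribo-seq, against 0.303 and 0.565 FPKM in RNA-seq, and was not tested. The summed level of the 7 markers was 10.7 and 17.7 FPKM in Ribo-seq and 8.93 and 9.31 FPKM in RNA-seq, and the part of these cells in the cd74 level was not tested.

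Along the chromosome, cd74 stood out from the models around it in level. The 12 models within 50 kb had mean levels of 0 to 33.2 FPKM in Ribo-seq and of 0 to 11.6 FPKM in RNA-seq. Of 9 tested, limma called 2 higher and 1 lower, where 23.9% of all tested models were called higher and 33.7% lower. The nearest named model below it, 18.6 kb away, was slc35a4, a nucleotide sugar transporter family gene, with 1.85 and 4.84 FPKM in Ribo-seq, against 1.90 and 2.12 FPKM in RNA-seq. Its assays overlapped, and its difference of 0.98 was not called (limma, adjusted p = 0.060). The nearest named model above it, 53.3 kb away, was rbm22, a splicing factor gene, with 31.6 and 52.2 FPKM in Ribo-seq, against 14.4 and 15.4 FPKM in RNA-seq (log2 difference 2.16; limma, adjusted p = 0.0039).

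**Figure D4:**
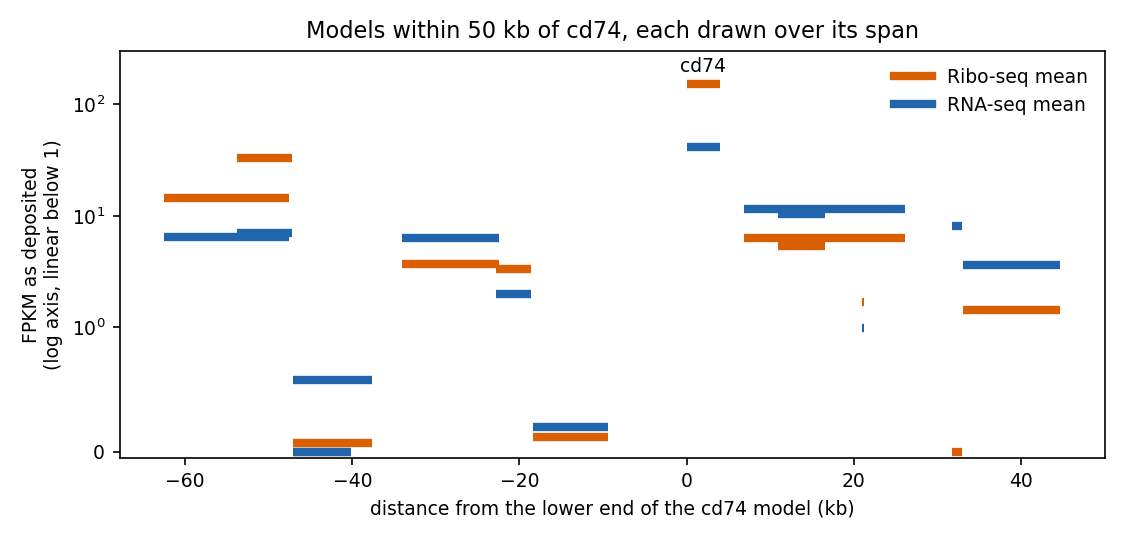
Mean deposited FPKM in Ribo-seq and RNA-seq (vertical, log axis, linear below 1) of cd74 and the 12 models within 50 kb, each drawn over its span as distance in kb from the lower end of the cd74 model. cd74 has the highest level in both assays, at 150 FPKM in Ribo-seq and 41.3 FPKM in RNA-seq.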

How the data were processed

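Libraries were prepared with a TruSeq kit for ribosome profiling, per the labels' protocols. The authors deposited FPKM of each library, per the file headers; TopHat2 2.1.0 and Cufflinks 2.2.1 appear in the submitters' processing notes, which give no roles. The build, the annotation and any use of strand are not given in the sources. A model took the symbol of a RefSeq gene (ASM223467v1) where the shared stretch made up 50% or more of both spans, keeping the best model for each gene; 7241 models were named. That the builds match was read from the data: 2134 of 22071 protein-coding genes ended within 10 bp of a model end, against 62 and 58 after moving the models by 20 kb up and down. A value of 0 may stand for an estimate that failed.

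Libraries were scaled by their median ratio to the geometric mean, over models detected in every library; the factors were 0.651 and 0.925 for Ribo-seq replicates 1 and 2, and 1.40 and 1.32 for RNA-seq replicates 1 and 2. Models with a mean FPKM of at least 1 were fitted as log2(scaled FPKM + 1), which understates differences of low models. The fit used limma 3.58.1 in R 4.3.3, with a mean-variance trend and the assay as its term. Calls are at a Benjamini-Hochberg adjusted p below 0.05 over all 50625 models. Whole reads were not recovered from the FPKM, so no counting error is given. Tables and plots were made in Python 3.11.15 with scipy 1.17.1, pandas 2.3.3, numpy 2.4.6 and matplotlib 3.10.9.

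cd74 and the gene lists were chosen with earlier results of these data known. Named were, per list, the 6 tested members with the highest RNA-seq level and any member called lower, the 3 named models next to cd74 by RNA level on each side, the 5 most like it, and the nearest named model on each side. Alternatives were other scalings, pseudocounts and filters, no trend, a replicate block, leaving out each library, and other windows of RNA level.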

Additional observations from a re-analysis of the deposited data

How the results depend on the processing

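The cd74 difference kept its direction under all 12 alternative fits (1.77 to 2.77, adjusted p 0.0023 to 0.070) and was called in all but those without RNA-seq replicate 1 or 2; leaving out 1 library at a time it was 2.35 to 2.77. Its percentile among models of similar RNA level was 90.0 to 96.5 over 19 alternatives. Models with a symbol gave 93.6, and those with a symbol and no overlap, a set chosen after seeing the data, gave 90.0. Leaving out 1 library at a time, 1638 to 14700 models were called higher, 9279 to 18988 lower, and 3 to 27 list members higher, the low counts coming without an RNA-seq library. With FPKM as deposited, 2425 models and 8 list members were called higher, and the difference of sall1 turned to -0.09. With no filter 29544 models and 1 list member, nlrc5 (-0.44), were called lower; at a mean FPKM of at least 5, 4477 models were. The cause of these changes was not tested.

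The labels do not say that replicate numbers pair the libraries (correlation of replicate differences 0.0677 between the assays over 50625 models). With the replicate number as a block, cd74 was called (2.56, adjusted p = 0.014), 11131 models were higher and 16488 lower, and tapbp and sall1 lost their call. Calls at this size rest on 2 libraries per assay of unknown depth and on a scale set from the same libraries.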
